A study of Mus musculus with 4 samples.

Results

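The GABA rho receptors and the GABA-B receptor of the retina were followed in single nuclei of the mouse retina through 5 genes: Gabrr1, Gabrr2 and Gabrr3, which encode the rho subunits, and Gabbr1 and Gabbr2, which encode both subunits of the GABA-B receptor. They were chosen by symbol among the 31053 genes of the deposited count tables, and none of the 5 was used to group the nuclei. Nuclear RNA had been profiled in droplets (10x), where a barcode marks the nucleus and a UMI, a random tag, the captured molecule. The left eyes of 4 mice gave 1 library each: 2 libraries from animals of 5 months, for which no genotype is given in the labels, and 2 from animals of 2.5 months, which the labels call wild type. No treatment is named in the labels, the strain is not given, and the series text describes unrelated donors but names an eye bank and, in the title, human retina. The tables of the 5-month libraries were made with Cell Ranger 4.0.0 and those of the 2.5-month libraries with Cell Ranger 7.1.0. The effect of age cannot be told apart from that of the software, nor from that of genotype if it differed. Nuclei were sorted into classes by other genes, and each class name below stands for nuclei that carry the markers of that type.

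GABA is the main fast inhibitory transmitter of the inner retina and is released mostly by amacrine cells. The rho subunits form ligand-gated chloride channels that respond slowly and with long-lasting currents, and they are known above all from the axon terminals of bipolar cells, the neurons that carry photoreceptor signals to the inner retina. The GABA-B receptor is a different kind of molecule, a G-protein-coupled receptor that works only as a pair: the product of Gabbr1 binds GABA and that of Gabbr2 carries the complex to the cell surface and couples it to G proteins. Rod bipolar cells serve dim light, ON cone bipolar cells respond to light increments and OFF cone bipolar cells to light decrements.

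On the GRCm38 assembly Gabrr2 (ENSMUSG00000023267) lies on the plus strand of chromosome 4 from base 33062999 to 33095865, and Gabrr1 (ENSMUSG00000028280) follows it on the same strand from 33132521 to 33163588. The gap between them spans 36655 bases and holds 0 other annotated genes. Gabrr3 (ENSMUSG00000074991) lies on the plus strand of chromosome 16 from 59407332 to 59464504, and its 3′ part overlaps the antisense noncoding gene 1700022E09Rik, so that reads of these overlapping genes cannot be told apart unless strand was used in counting, which the sources used here do not state. Gabbr1 (ENSMUSG00000024462) lies on the plus strand of chromosome 17 from 37045966 to 37075067, and Gabbr2 (ENSMUSG00000039809) on the minus strand of chromosome 4 from 46662305 to 46991873, a gene of 329569 bases. The sequences before the starts of the rho genes are shown (RefSeq, GRCm38.p6, plus strand, 5′ to 3′). The neighbours Gabrr1 and Gabrr2 were both highest in the bipolar classes, though in different orders and with different levels among bipolar subclusters. Gabrr3 was highest in cone bipolar nuclei and cones. Capitals mark a match to TAATCC on either strand, the core bound by the retinal homeobox factors CRX and OTX2.
Gabrr2, chr4:33062862-33062998: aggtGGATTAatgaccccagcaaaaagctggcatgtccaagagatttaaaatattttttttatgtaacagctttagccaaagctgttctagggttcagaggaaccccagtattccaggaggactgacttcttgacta
Gabrr1, chr4:33132306-33132520: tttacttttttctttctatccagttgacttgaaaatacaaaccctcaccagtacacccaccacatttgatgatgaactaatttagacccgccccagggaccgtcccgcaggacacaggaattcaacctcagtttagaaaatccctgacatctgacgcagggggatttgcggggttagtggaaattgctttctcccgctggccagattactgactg
Gabrr3, chr16:59407132-59407331: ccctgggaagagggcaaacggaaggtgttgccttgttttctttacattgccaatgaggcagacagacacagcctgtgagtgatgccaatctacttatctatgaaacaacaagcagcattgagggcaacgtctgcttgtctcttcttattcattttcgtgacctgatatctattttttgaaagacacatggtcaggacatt
Of these windows, the 137 bases before Gabrr2 held 1 match to TAATCC, on the minus strand, with its first base at position -133 counted from the annotated start. The windows before Gabrr1 (215 bases) and Gabrr3 (200 bases) held 0. Among 32851 RefSeq promoters, windows of 137, 200 and 215 bases held TAATCC in 3.63%, 5.22% and 5.54% of cases. These windows begin 250 bases before the RefSeq start and end short of it. Those of the rho genes begin at the same distance and end at the annotated gene start, from which the position is counted. The general E-box CANNTG, which does not overlap the TAATCC match, was found 0 times before Gabrr2, 3 times before Gabrr1 and 1 time before Gabrr3, and 46.1%, 61.4% and 59.0% of promoter windows of those lengths hold it. A match is a description of letters and not a site.

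The 5-month libraries held 7537 and 9963 barcodes and the 2.5-month libraries 7404 and 7422, with 19608067 to 36320257 UMIs in all per library. After quality and doublet filters 30361 nuclei remained, of which 27436 fell into named clusters. In 14 classes each library held at least 20 nuclei, and the levels and orders below are over these 14; endothelium and striated muscle were not tested. Rod bipolar nuclei numbered 178 and 161 at 5 months and 185 and 259 at 2.5 months, with 543517 to 1130497 UMIs per library. The 9 rod bipolar markers summed to 15952 to 24233 CPM (UMIs of a gene per 1e6 UMIs of the class) in that class, against 2199 to 2607 CPM in ON cone bipolar nuclei, where several of them are also expressed. Rod RNA was present in all bipolar classes, with the 8 rod markers at 2349 to 3601 CPM in rod bipolar nuclei and 2583 to 3877 CPM in ON cone bipolar nuclei. The Müller-like class was a single cluster (cluster 2) in which 9 of 10 Müller markers were raised against the other nuclei. Its 10 leading genes held no Müller marker and 1 endothelial marker, Flt1, and several other named clusters also had no own marker there. The Müller-like class was tested between ages like the other classes.

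A group of 82 bipolar nuclei, here subcluster B14, stood apart. It held 34 and 42 nuclei at 5 months but 4 and 2 at 2.5 months, and 64 of the 82 were counted as rod bipolar. Its leading genes were Robo1, Kcnip1 and Lingo2, its rod bipolar markers summed to 8890 CPM (21447 CPM in B01, the most numerous rod bipolar subcluster), its 8 rod markers to 4856 CPM (2505 CPM in B01) and its GABAergic amacrine markers to 624 CPM (71.4 CPM in B01). Some results on rod bipolar nuclei are therefore also given without it, an alternative chosen after seeing the data, and the others include it. B14 was picked as the subcluster with the smallest share of 2.5-month nuclei, so its removal acts on comparisons of the ages by construction.

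Gabrr1 and Gabrr2 were highest in the 3 bipolar classes, and Gabrr3 in cone bipolar nuclei and cones. Gabrr1 averaged 204 ± 27.4 CPM in rod bipolar, 156 ± 6.48 CPM in OFF cone bipolar and 127 ± 32.1 CPM in ON cone bipolar nuclei (SD, n = 4 libraries, here and below). The next class was horizontal cells at 12.6 ± 2.87 CPM, whose libraries lay far below every bipolar library. Gabrr1 libraries of rod bipolar nuclei did not overlap those of OFF cone bipolar nuclei, while the OFF and ON cone bipolar libraries overlapped.

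Gabrr2, the rho subunit gene next to Gabrr1, averaged 730 ± 77.4 CPM in ON cone bipolar, 602 ± 69.3 CPM in rod bipolar and 408 ± 32.6 CPM in OFF cone bipolar nuclei. The ON cone and rod bipolar libraries overlapped, and both classes lay above all OFF libraries. Rods followed at 42.3 ± 6.20 CPM, and their libraries did not overlap those of any other of the 14 tested classes. Pigment epithelium at 25.1 ± 7.39 CPM and cones at 20.7 ± 0.806 CPM overlapped each other.

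Gabrr3 had a different order: 197 ± 10.4 CPM in OFF cone bipolar, 175 ± 32.5 CPM in ON cone bipolar and 76.2 ± 16.6 CPM in cones, the daylight photoreceptors. Cone libraries held 101 and 69 CPM at 5 months and 64.3 and 70.7 CPM at 2.5 months, below every cone bipolar library and above every library of the remaining tested classes. Rod bipolar nuclei held only 3.97 ± 2.06 CPM, from 10 UMIs in all, and of the 14 tested classes none other than cones and cone bipolar nuclei exceeded 8.38 CPM on average.

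The GABA-B genes were spread more widely. Gabbr1, the GABA-binding subunit, was found in every class, from 101 ± 13.7 CPM in GABAergic amacrine and 101 ± 7.72 CPM in retinal ganglion nuclei down to 30.1 ± 3.30 CPM in cones and 29.6 ± 8.86 CPM in rod bipolar nuclei. Each class overlapped its neighbour in this order. Gabbr2, the partner subunit, spanned a much wider range, with 287 ± 41.6 CPM in ganglion, 252 ± 33.9 CPM in GABAergic amacrine and 237 ± 24.7 CPM in ON cone bipolar nuclei. These 3 classes overlapped in turn and lay above glycinergic amacrine (104 ± 13.2 CPM) and OFF cone bipolar nuclei (79.7 ± 8.18 CPM), which overlapped each other. Starburst amacrine nuclei stood at 36.9 ± 11 CPM, rods at 13.4 ± 2.89 CPM, rod bipolar nuclei at 12.7 ± 16.4 CPM and Müller-like nuclei at 5.47 ± 2.08 CPM.

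**Figure D1:**
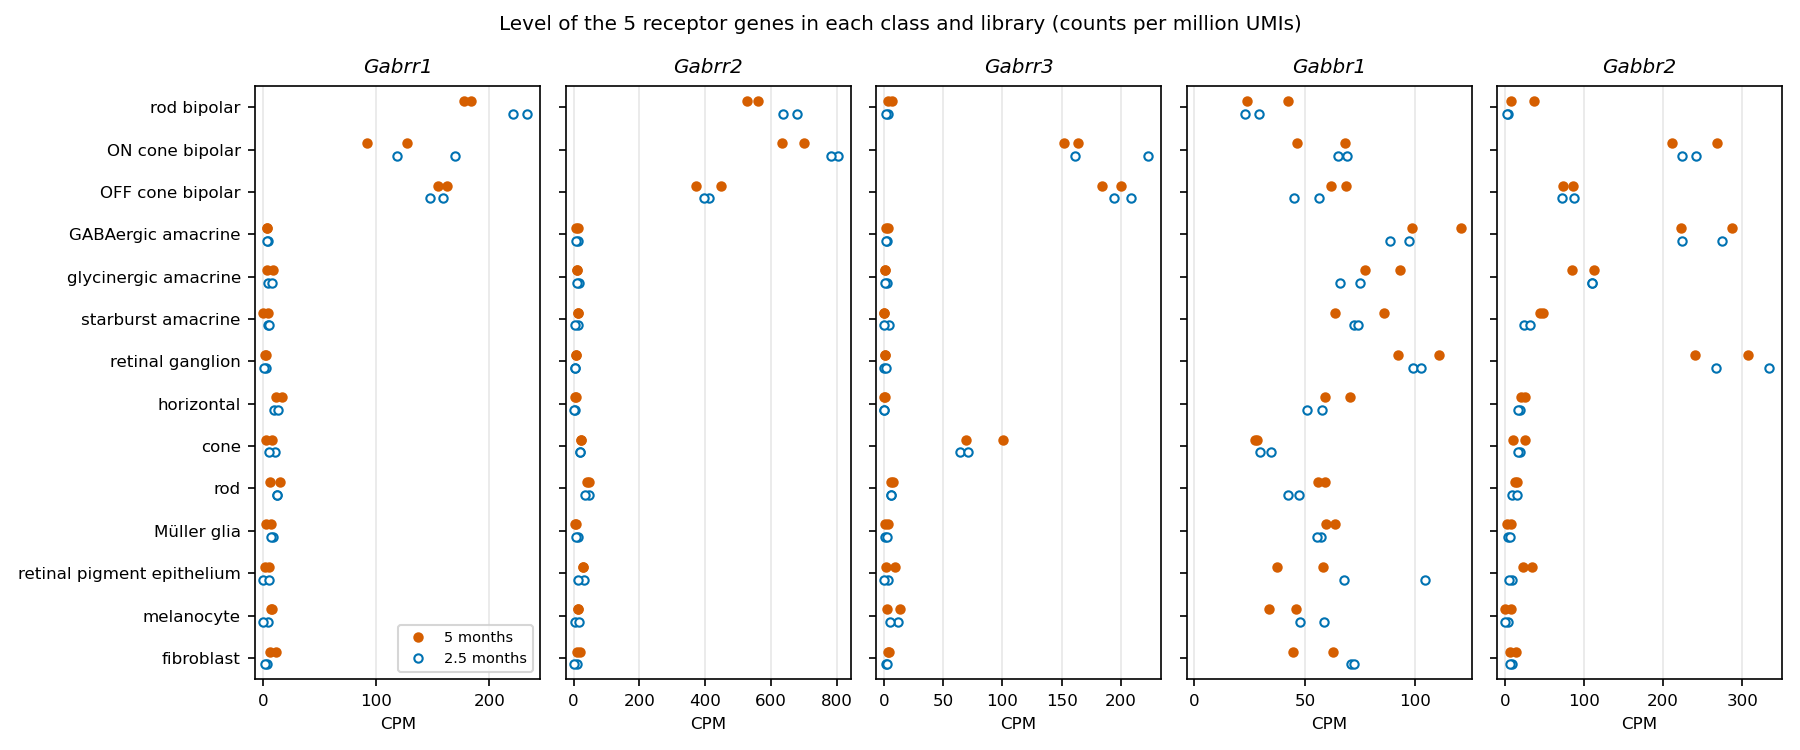
Level of the 5 genes (horizontal axes, CPM, a separate scale for each gene) in 14 classes of nuclei (rows); each point is 1 library, filled orange for 5 months and open blue for 2.5 months. Gabrr1 and Gabrr2 stand out in all 3 bipolar classes, Gabrr3 in cone bipolar nuclei and cones, and Gabbr2 in ganglion, amacrine and cone bipolar nuclei, while Gabbr1 is found in every class.

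Each class was then compared with the average of the others on the log2 scale (edgeR's quasi-likelihood test with library as a block, Benjamini-Hochberg adjustment over all genes tested). Of the 70 combinations of gene and class, 21 were called higher and 33 lower. Over all genes and classes 24.5% of tests were called higher and 21.8% lower, so that 46.3% were called in all. Gabrr1 was called higher in 4 classes, the 3 bipolar classes (log2 fold change 4.68 in rod bipolar, 4.20 in OFF and 3.82 in ON cone bipolar nuclei) and horizontal cells (0.83, adjusted p = 0.0470, a call lost without any 1 library). Gabrr2 was called higher in the bipolar classes (4.88 in rod bipolar, 5.09 in ON and 4.22 in OFF cone bipolar nuclei) and in rods (0.38, SE 0.138, adjusted p = 0.0126; 0.35 with adjusted p = 0.0792 without 2.5-month replicate 1). The rod call was also lost with doublets kept (0.10, adjusted p = 0.494), with RLE scaling (0.29, adjusted p = 0.0529) and with DESeq2 (0.35, adjusted p = 0.109). Gabrr3 was called higher in OFF cone bipolar (5.75), ON cone bipolar (5.56) and cone nuclei (4.10, SE 0.137, adjusted p = 1.59e-33).

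Gabbr1 was called higher in 5 classes, with the greatest values in ganglion (0.95) and GABAergic amacrine nuclei (0.84), and lower in 4: cones (-1.20), rod bipolar nuclei (-1.04, adjusted p = 8.05e-07), melanocytes (-0.56) and rods (-0.50). Gabbr2 was called higher in ganglion (3.49), GABAergic amacrine (3.18), ON cone bipolar (3.06), glycinergic amacrine (1.75) and OFF cone bipolar nuclei (1.44). It was called lower in 6 classes, among them rod bipolar nuclei (-1.61, adjusted p = 3.75e-05). Without 5-month replicate 1 that value was -2.98, and without subcluster B14 it was -2.73. The classes were built from other genes of the same nuclei. With library as a block, p-values here measure how far differences between classes vary from library to library. That spread was estimated over all classes together, and it is not the spread between eyes.

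Shares of nuclei with at least 1 UMI followed the levels only in part. Gabrr2 was detected in 84.0% of rod bipolar nuclei (median 3235 UMIs) and 1.90% of Müller-like nuclei (median 2811.5 UMIs). After each nucleus was thinned to 1000 UMIs the shares were 46.8% and 0.563%. In ON cone bipolar nuclei, where its level was highest, Gabrr2 was detected in only 68.1% (median 2913 UMIs), or 44.7% thinned. Gabrr1 was detected in 50.7% of rod bipolar nuclei and together with Gabrr2 in 43%, against 1.62% for Gabrr1 in Müller-like nuclei. In cones Gabrr3 was detected in 14% of nuclei (6.75% thinned), against 0.623% in Müller-like nuclei (0.282% thinned).

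Rods carried Gabrr2 UMIs in 4.68% of nuclei (3.52% thinned), above the Müller-like share. Relative to its rod bipolar level, Gabrr2 in rods stood at 9.06% and 7.22% at 5 months and at 7.28% and 5.05% at 2.5 months. The ON bipolar channel gene Trpm1 stood there at 1.89% and 0.995% of its rod bipolar level at 5 months and 1.30% and 1.13% at 2.5 months. The 9 rod bipolar markers together stood at 5.84% to 8.28% of their rod bipolar sum in rods. The part of RNA from bipolar cells in the rod value of Gabrr2 was not tested.

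Rod bipolar nuclei differed from cone bipolar nuclei (ON and OFF together) in 4 of the 5 genes, beside 23.6% of all genes tested. They carried more Gabrr1, almost no Gabrr3, less Gabbr1 and very little Gabbr2, while the Gabrr2 libraries of both overlapped. Gabrr1 stood at 184 and 178 CPM (5 months) and 234 and 221 CPM (2.5 months) in rod bipolar nuclei, against 144 and 123 CPM and 165 and 132 CPM in cone bipolar nuclei. Rod bipolar nuclei lay higher in all 4 libraries and the groups did not overlap. The log2 fold change was 0.62 (SE 0.106, adjusted p = 0.00148), and it was 0.47 with adjusted p = 0.0525 in the 5-month libraries alone. With every nucleus thinned to 1000 UMIs it was 0.31 and did not pass (adjusted p = 0.156).

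Gabrr3 stood at 6.75 and 3.67 CPM at 5 months and 3.68 and 1.77 CPM at 2.5 months in rod bipolar nuclei, against 181 and 168 CPM and 176 and 216 CPM in cone bipolar nuclei. Every rod bipolar library held 4 UMIs or fewer, far below the cone bipolar libraries. The log2 fold change was -5.61 (SE 0.235, adjusted p = 1.05e-07), a level 48.8 times lower. Detection gave the same picture: 1.02% of rod bipolar nuclei carried a Gabrr3 UMI, against 24.9% of ON and 27.0% of OFF cone bipolar nuclei.

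Gabbr1 stood at 42.2 and 23.8 CPM at 5 months and 29.4 and 23.0 CPM at 2.5 months in rod bipolar nuclei, against 56.9 and 65.0 CPM and 63.2 and 55.5 CPM in cone bipolar nuclei. The groups did not overlap, and the log2 fold change was -0.97 (SE 0.191, adjusted p = 0.00363), or 1.96 times lower. In the 5-month libraries alone it was -0.85 with adjusted p = 0.0605.

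Gabbr2 stood at 37.1 and 7.34 CPM at 5 months and 3.68 and 2.65 CPM at 2.5 months in rod bipolar nuclei, against 183 and 144 CPM and 155 and 168 CPM in cone bipolar nuclei. All rod bipolar libraries lay below all cone bipolar libraries, and 5-month replicate 1 was the highest of them. The log2 fold change was -3.81 (SE 0.392, adjusted p = 4.66e-05), or 14 times lower. It was -5.19 without 5-month replicate 1 and -4.96 without subcluster B14.

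Gabrr2 stood at 528 and 561 CPM at 5 months and 638 and 679 CPM at 2.5 months in rod bipolar nuclei, against 584 and 506 CPM and 625 and 598 CPM in cone bipolar nuclei. The groups overlapped and the log2 fold change of 0.14 did not pass the test (SE 0.102, adjusted p = 0.408). Without subcluster B14 it was 0.26 and passed (adjusted p = 0.00861). Over all 10071 genes tested 11.4% were called higher and 12.2% lower in rod bipolar nuclei (23.6% in all), beside 1 and 3 of the 5 receptor genes.

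**Figure D2:**
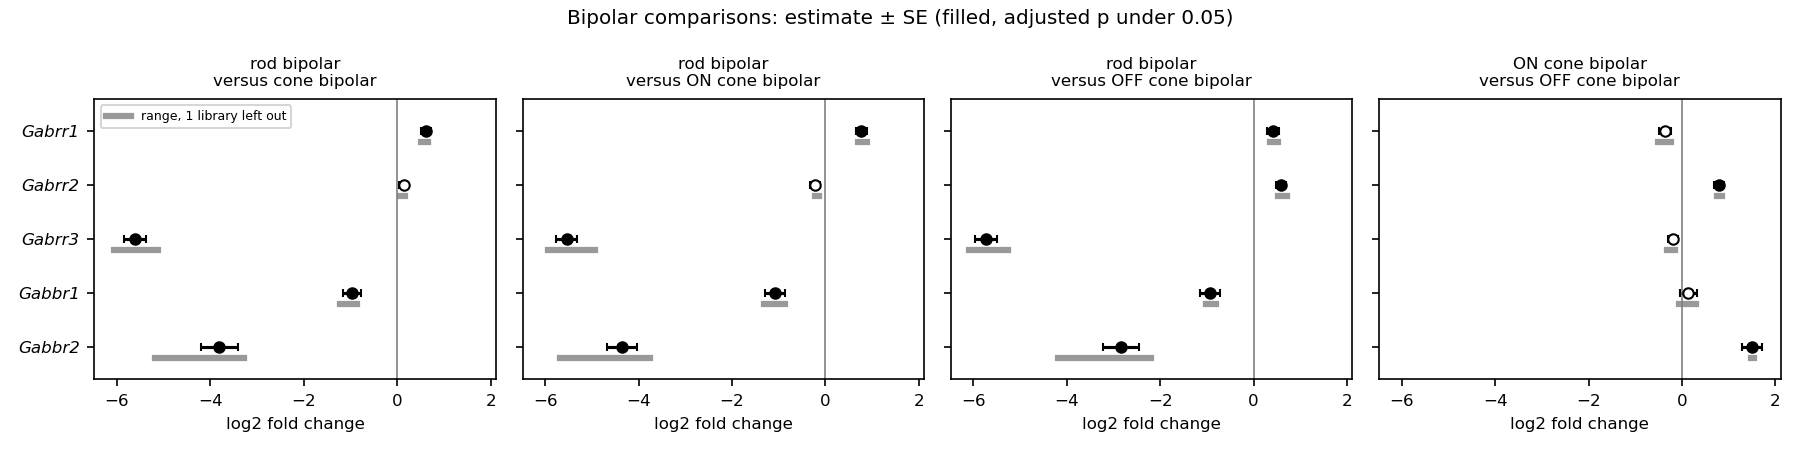
Fitted log2 fold change (horizontal axis) of the 5 genes (rows) in 4 comparisons of bipolar classes (panels); points are estimates with standard errors, filled where the adjusted p was under 0.05, and grey bars span the fits that leave out 1 library each. Gabrr3 and Gabbr2 lie far to the left in each comparison of rod bipolar nuclei, and Gabrr2 passes to the right of 0 in both comparisons with OFF nuclei.

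With the cone bipolar nuclei divided into ON and OFF, rod bipolar nuclei differed from ON nuclei in 4 of the 5 genes and from OFF nuclei in all 5. Against ON cone bipolar nuclei, rod bipolar nuclei were higher in Gabrr1 (log2 fold change 0.77, adjusted p = 0.000195) and lower in Gabrr3 (-5.54, adjusted p = 8.84e-11, and -4.93 without 2.5-month replicate 2), Gabbr1 (-1.07, adjusted p = 0.00122, and -0.73 with adjusted p = 0.158 at 5 months alone) and Gabbr2 (-4.35, adjusted p = 3.58e-08). Gabrr2 was at -0.22 and did not pass (adjusted p = 0.152). Over all genes 11.0% were called higher and 13.8% lower in this comparison (24.8% in all). The Gabbr2 value was -5.68 without 5-month replicate 1, -3.76 without 2.5-month replicate 2 and -5.47 without subcluster B14.

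Against OFF cone bipolar nuclei, all 5 genes passed, beside 12.9% of genes called higher and 15.3% called lower (28.2% in all). Gabrr2 was higher in rod bipolar nuclei (0.58, SE 0.106, adjusted p = 0.000445), as was Gabrr1 (0.42, adjusted p = 0.0185). The Gabrr1 call was lost without 2.5-month replicate 1 (0.38, adjusted p = 0.0737) and without 2.5-month replicate 2 (0.34, adjusted p = 0.140), and the thinned value was 0.09 (adjusted p = 0.774). Lower were Gabrr3 (-5.73, adjusted p = 2.95e-11), Gabbr1 (-0.94, adjusted p = 0.00393, and -0.78 with adjusted p = 0.101 thinned) and Gabbr2 (-2.84, adjusted p = 1.91e-05). The Gabbr2 value was -4.19 without 5-month replicate 1, -2.21 without 2.5-month replicate 2 and -3.96 without subcluster B14.

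Between the cone bipolar classes, ON nuclei carried more Gabrr2 and more Gabbr2 than OFF nuclei. Gabrr2 stood at 702 and 634 CPM at 5 months and 803 and 782 CPM at 2.5 months in ON cone bipolar nuclei, against 449.8 and 372 CPM and 413 and 396 CPM in OFF cone bipolar nuclei. Every ON library lay above every OFF library (log2 fold change 0.80, SE 0.105, adjusted p = 4.17e-05).

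Gabbr2 stood at 268 and 211 CPM at 5 months and 224 and 242 CPM at 2.5 months in ON nuclei, against 86.4 and 73.6 CPM and 71.7 and 87.1 CPM in OFF nuclei. The groups were far apart (1.51, SE 0.213, adjusted p = 8.61e-05). Gabrr1 was at -0.35 (adjusted p = 0.0882, but -0.51 with adjusted p = 0.0454 without 2.5-month replicate 1), Gabrr3 at -0.19 (adjusted p = 0.346) and Gabbr1 at 0.14 (adjusted p = 0.779), none of which passed. Over all genes 7.83% were called higher and 6.92% lower in ON nuclei (14.7% in all).

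Gabrr2 and Gabrr3 also varied among nuclei of the same bipolar class. The bipolar nuclei were divided into 17 subclusters by genes other than these 5, and the subclusters are described here with values only and without a test, because they were drawn from the same nuclei. The values are CPM of UMIs pooled over the 4 libraries. Bipolar subclusters fell into those with Gabrr2 and little Gabrr3, those with Gabrr3 and little Gabrr2, and those with both.

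In 3 subclusters Gabrr3 was high and Gabrr2 low relative to the other subclusters. B12, an ON cone bipolar group led by Pvt1 and Tmem200a, held 899 CPM of Gabrr3 and 23.9 CPM of Gabrr2. B09, an OFF cone bipolar group led by Fam19a4 and Col11a1, held 679 CPM of Gabrr3 and 67.3 CPM of Gabrr2. B11, an ON cone bipolar group led by Brinp3 and Bmpr1b, held 449.8 CPM of Gabrr3 and 12.9 CPM of Gabrr2, with 4 UMIs of Gabrr2 in all. The lowest Gabrr3 library of the 3 subclusters stood at 250.2 CPM (B11, 2.5-month replicate 1) and the highest Gabrr2 library at 92.5 CPM (B09, 5-month replicate 2).

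The opposite pattern was seen in the ON cone bipolar groups B03, led by BC046251 and Sox6, and B07, led by Palld and Tacr1. They held 1235 and 1236 CPM of Gabrr2, the highest levels found, and 1.33 and 9.11 CPM of Gabrr3. Per library, Gabrr2 lay between 1025 and 1353 CPM in both. The rod bipolar subclusters B01 and B02 held 667 CPM of Gabrr2 each, with 2.95 and 4.34 CPM of Gabrr3. In B05, B08, B10, B13, B15 and B17 Gabrr2 ranged from 343 to 566 CPM and Gabrr3 from 0 to 26.7 CPM.

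Both genes were present in B04 (OFF, led by Sgcz and Lrfn5), with 476 CPM of Gabrr2 and 414 CPM of Gabrr3, in B06 (ON, led by Sema3d and Grin3a), with 738 and 233 CPM, and in B16 (ON, led by Kirrel3 and Chn2), with 263 and 131 CPM. Gabrr3 in B16 stood at 78.5 and 23.2 CPM at 5 months, from 4 and 1 UMIs, and at 194 and 206 CPM at 2.5 months. Single nuclei carried both: UMIs of Gabrr2 and Gabrr3 were found together in 41.2% of B04 nuclei (37.8% and 34.0% at 5 months, 30.9% and 55.4% at 2.5 months) and in 38.9% of B06 nuclei. After thinning to 1000 UMIs the shares were 10.5% and 9.0%. In B16 the share was 10.8%, or 3.08% thinned. In B01, of higher median depth, the share was 0.711%. The doubtful subcluster B14 held 299 CPM of Gabrr2 and 6.41 CPM of Gabrr3.

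**Figure D3:**
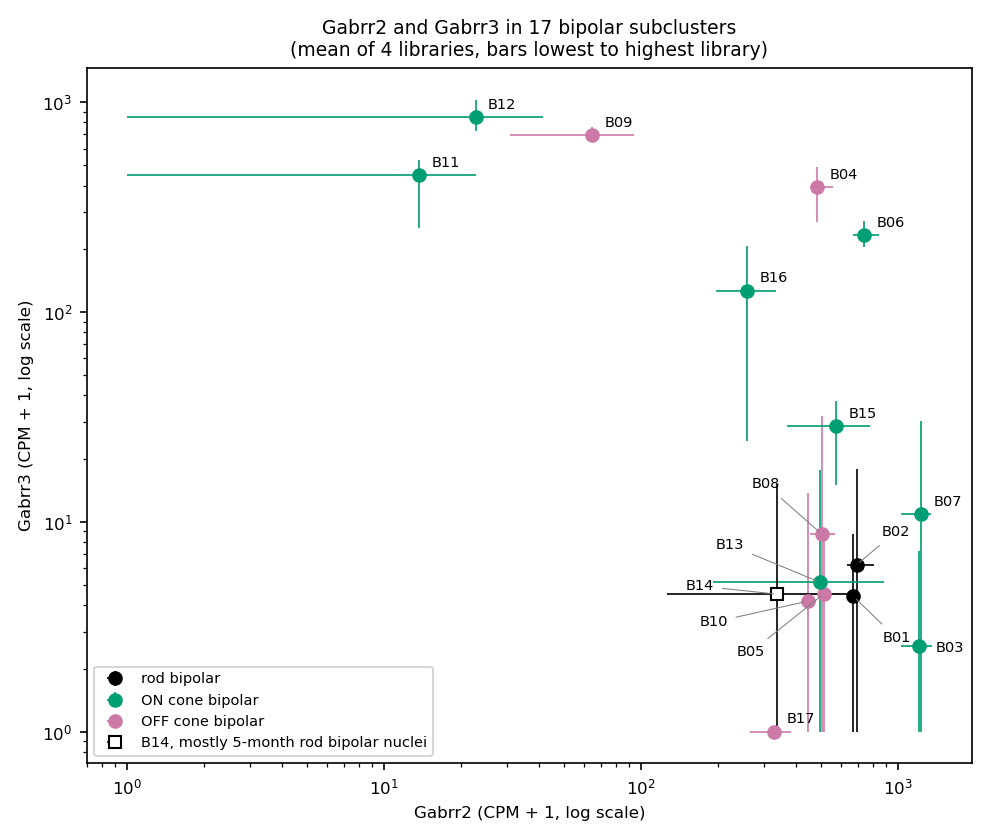
Gabrr2 (horizontal) and Gabrr3 (vertical) in 17 bipolar subclusters, both as CPM + 1 on log axes; points are means of 4 libraries, bars run from the lowest to the highest library and colours give the class. B09, B11 and B12 lie at the upper left with Gabrr3 and little Gabrr2, B03 and B07 at the lower right with Gabrr2 and little Gabrr3, and B04, B06 and B16 carry both.

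Gabrr1 varied less among the subclusters. It ran between 80.2 and 228 CPM in all of them except B13, an ON cone bipolar group led by Pcdh11x, which held 39.8 CPM from 11 UMIs. The highest values were in B01 (228 CPM), B04 (223 CPM) and B02 (199.8 CPM), and Gabrr1 was present at 93.8, 95.6 and 173 CPM in B11, B12 and B09, the groups with little Gabrr2. B13 also held the highest Gabbr1 level, 134 CPM, against 17.4 to 72.9 CPM in the other subclusters.

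Gabbr2 divided the bipolar subclusters into a set with much of it and a set with little, with B14 between at 51.3 CPM. Among ON cone bipolar subclusters it stood at 457 CPM in B12, 379 CPM in B03, 287 CPM in B07, 272 CPM in B11, 221 CPM in B13 and 157 CPM in B16, but at 15 CPM in B06 and 17.8 CPM in B15. Among OFF subclusters it stood at 221 CPM in B04 and 181 CPM in B09, but at 6.21, 1.71, 20.7 and 6.47 CPM in B05, B08, B10 and B17. The rod bipolar subclusters B01 and B02 held 2.95 and 2.9 CPM, from 5 and 2 UMIs. Gabbr2 thus exceeded 150 CPM in 6 of 8 ON and 2 of 6 OFF subclusters.

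Among amacrine clusters, inhibitory interneurons of the inner retina, Gabbr2 averaged 13 to 564 CPM and Gabbr1 62.8 to 111 CPM. The GABAergic cluster 10, led by Maf and Tnc, held 564 CPM of Gabbr2 (506 to 639 CPM over the libraries), and the GABAergic cluster 23, led by Olfm3, held 13 CPM (6.05 to 27.6 CPM). Their Gabbr1 levels were 98.7 and 91.8 CPM. Glycinergic clusters held 49.8 to 153 CPM of Gabbr2, and the 3 ganglion clusters 249.9 to 329 CPM. The starburst cluster, marked by Chat, stood at 36.9 CPM of Gabbr2 and 74.0 CPM of Gabbr1.

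**Figure D4:**
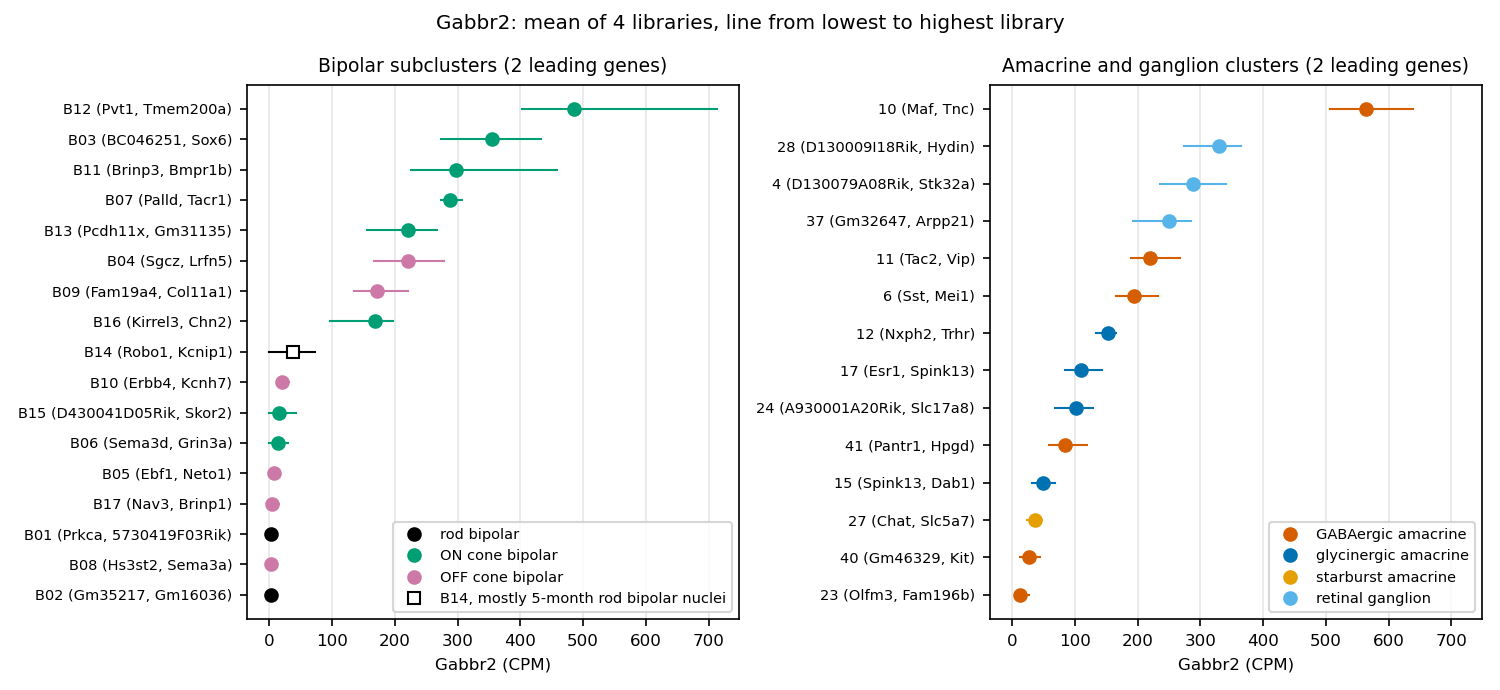
Gabbr2 level (horizontal axes, CPM) in the bipolar subclusters (left) and in the amacrine and ganglion clusters (right), with 2 leading genes of each in brackets; points are means of 4 libraries and lines run from the lowest to the highest library. Bipolar subclusters fall into a set above 150 CPM and a set below 25 CPM, with B14 between, and cluster 10 lies above every other amacrine and ganglion cluster.

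Age moved none of the 5 genes past the test in any class. Of 70 combinations of gene and class, 47 passed the filter on low counts, and 0 were called at 5 months against 2.5 months with edgeR's quasi-likelihood test or with DESeq2; 0 had an unadjusted p under 0.05 in the edgeR fit. Over all genes and classes 0.288% were called (0.248% higher and 0.0393% lower), and 1.75% in rod bipolar nuclei. In rod bipolar nuclei Gabrr1 averaged 181 CPM in the 5-month and 227 CPM in the 2.5-month animals (log2 fold change -0.39, adjusted p = 0.587), and Gabrr2 averaged 545 CPM in the older and 659 CPM in the younger animals (-0.34, adjusted p = 0.636). The ages did not overlap for either gene, but with 2 libraries an age this often happens by chance. Without subcluster B14 Gabrr2 stood at 665 and 656 CPM at 5 months and 662 and 679 CPM at 2.5 months, and the values overlapped. Gabrr1 without B14 stood at 206 and 197 CPM at 5 months and 241 and 222 CPM at 2.5 months, and the ages did not overlap.

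Gabbr2 in rod bipolar nuclei fell under the filter on low counts in the fit by age. It counted 22 and 4 UMIs at 5 months and 2 and 3 UMIs at 2.5 months, so that the 5-month libraries lay above the 2.5-month ones mainly through replicate 1. In the fit of both bipolar classes, which tested it, its difference between rod and cone bipolar nuclei differed between the ages: the interaction was 2.80 on the log2 scale (SE 0.65, adjusted p = 0.00928), beside 2.63% of all genes called (2.48% with a positive and 0.144% with a negative interaction). Without subcluster B14, picked by its low share of 2.5-month nuclei, the rod bipolar UMIs were 7 and 1 at 5 months and 1 and 3 at 2.5 months. The interaction then did not pass (1.96, adjusted p = 0.651). Nor did it pass without 5-month replicate 1 (1.39, adjusted p = 0.837), without 2.5-month replicate 1 (2.98, adjusted p = 0.0998) or without 2.5-month replicate 2 (2.40, adjusted p = 0.681). The interactions of the other 4 genes had adjusted p-values of 0.694 to 0.909.

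**Figure D5:**
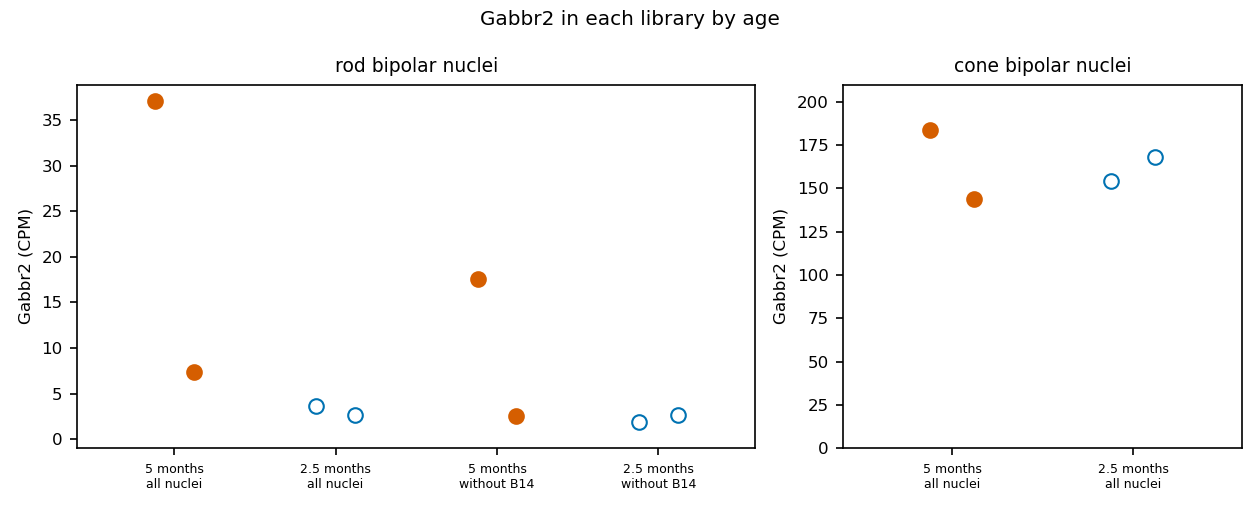
Gabbr2 level (vertical axes, CPM) per library by age in rod bipolar nuclei, with and without subcluster B14 (left), and in cone bipolar nuclei (right); filled orange points are 5-month and open blue points 2.5-month libraries. In rod bipolar nuclei 5-month replicate 1 stands at 37.1 CPM, or 17.6 CPM without B14, above the other libraries, while the ages overlap in cone bipolar nuclei.

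The surrounding GABA genes were read in the same comparison of rod bipolar with cone bipolar nuclei. Of 50 genes in 7 lists, 35 were tested, 3 were higher, 10 were lower and 22 did not pass, beside 11.4% of all genes called higher and 12.2% called lower, the background for each list below. Their median log2 fold change was -0.19, beside 0.01 over all genes. Of 16 GABA-A receptor subunit genes, which form the fast synaptic chloride channels, 10 were tested, 1 was higher and 4 lower (median -0.58). Gabrb2, a beta subunit, stood at 50.6 and 38.5 CPM at 5 months and 11 and 9.73 CPM at 2.5 months in rod bipolar nuclei, against 338 and 308 CPM and 346 and 389 CPM in cone bipolar nuclei. The groups were far apart (log2 fold change -3.73, adjusted p = 2.26e-05, and -4.87 without B14).

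Gabrd, the delta subunit of extrasynaptic receptors, averaged 1.58 ± 1.87 CPM in rod bipolar and 19.2 ± 4.4 CPM in cone bipolar nuclei, without overlap (-3.27, adjusted p = 0.000794, and -3.87 without 2.5-month replicate 2). Gabra2, an alpha subunit, was the one higher gene of this list, at 55.7 and 40.3 CPM at 5 months and 5.52 and 9.73 CPM at 2.5 months in rod bipolar nuclei, against 14.7 and 11.6 CPM and 7.02 and 5.01 CPM in cone bipolar nuclei. The groups overlapped, and its value of 1.47 (adjusted p = 0.00747) fell to 1.16 (adjusted p = 0.0574) without 5-month replicate 1 and 1.29 (adjusted p = 0.0749) without 5-month replicate 2. With clusters drawn at resolution 2 it was 0.17 (adjusted p = 0.815). Without B14 it fell under the low-count filter.

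Of 4 KCTD genes, whose products are auxiliary subunits of the GABA-B receptor and shape its G-protein response, 2 were tested and both were lower in rod bipolar nuclei (median -2.49). Kctd16 stood at 96.2 and 29.3 CPM at 5 months and 27.6 and 7.08 CPM at 2.5 months in rod bipolar nuclei, against 315 and 298 CPM and 310 and 324 CPM in cone bipolar nuclei. All rod bipolar libraries lay below the cone bipolar ones (-3.14, adjusted p = 0.000234, and -4.09 without B14). The value was -4.04 without 5-month replicate 1 and -2.60 without 2.5-month replicate 2. Kctd8 averaged 55.9 ± 64.5 CPM in rod bipolar and 165 ± 13.2 CPM in cone bipolar nuclei (-1.83, adjusted p = 0.0233, and -3.58 without B14). Its call held without 5-month replicate 1 (-2.90) and was lost without 5-month replicate 2 (-2.05, adjusted p = 0.0927), 2.5-month replicate 1 (-1.60, adjusted p = 0.102) or 2.5-month replicate 2 (-1.21, adjusted p = 0.0591).

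Of 8 genes for G-protein alpha subunits and GIRK potassium channels, the effectors of GABA-B receptors, 7 were tested, 2 were higher and 1 was lower (median -0.01). Gnao1, the alpha subunit that the ON bipolar cascade also uses, averaged 1239 ± 137 CPM in rod bipolar and 477 ± 45.2 CPM in cone bipolar nuclei, without overlap (1.46, adjusted p = 2.73e-06). The GIRK genes moved in opposite directions: Kcnj9 was higher (141 ± 22.3 CPM in rod bipolar and 114 ± 21.7 CPM in cone bipolar nuclei, 0.41, adjusted p = 0.0256) and Kcnj6 lower (13.6 ± 11 CPM in rod bipolar and 30.3 ± 10.2 CPM in cone bipolar nuclei, -1.31, adjusted p = 0.0309). Libraries of the classes overlapped for both, and each call held only without 5-month replicate 1. It was lost without 5-month replicate 2 (0.41 for Kcnj9 and -1.70 for Kcnj6), 2.5-month replicate 1 (0.36 and -1.32) or 2.5-month replicate 2 (0.28 and -0.79). Without B14 Kcnj6 was at -2.54.

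Of 6 genes for GABA uptake and breakdown, 4 were tested and 1 was lower, the transporter gene Slc6a11 (GAT3), at 22.3 ± 13.9 CPM in rod bipolar and 131 ± 15.8 CPM in cone bipolar nuclei (-2.64, adjusted p = 0.000132, and -3.53 without B14). Of 8 genes for receptor scaffolds and trafficking, all were tested and 2 were lower. Among them was Map1b, a microtubule protein known to bind rho subunits (108 ± 34.1 CPM in rod bipolar and 231 ± 40.7 CPM in cone bipolar nuclei, -1.07, adjusted p = 0.000879). Of 3 genes for GABA synthesis and vesicle loading 2 were tested and 0 passed, and of 5 chloride transporter genes 2 were tested and 0 passed.

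The genes whose levels most resembled each receptor gene over the 14 classes were ranked by Pearson's r of mean log2(CPM + 1) among 11994 genes, as a description. Cabp5, a calcium-binding protein of bipolar cells, led for Gabrr1 (0.935), followed by Lyve1, Gm5478, Bsph1 and Gm9195. Nyx, the nyctalopin gene of ON bipolar dendrites, led for Gabrr2 (0.943), followed by Slc25a22, Cabp5, Bsph1 and Lactbl1, so that Cabp5 and Bsph1 stood on both lists. Gabrr3 was nearest to Gm5427 (0.910), Samsn1, Lhx4, Zdhhc16 and Ttyh2. Gabbr1 was nearest to Gm16054 (0.851), 6030419C18Rik, Srebf2, Dhcr7 and Gnai1, and Gabbr2 to the calcium pump gene Atp2b3 (0.939), Kcna4, Kcnt1, Trank1 and Plcl2. All of these values share the same libraries and classes.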

How the data were processed

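The authors deposited UMI counts per gene and nucleus as filtered 10x matrices. Per the file headers, Cell Ranger 7.1.0 was used for the 2.5-month and 4.0.0 for the 5-month libraries, and the labels give the genome build mm10. Counting of introns and of strand is not given in the sources used here. The genes, lists and tests were chosen with earlier results of these data known.

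A floor of 300 genes and a ceiling of 5% mitochondrial UMIs left 32299 of 32326 barcodes. The 6% with the highest scrublet scores in each library were removed as doublets, because the automatic threshold marked only 3 and 1 barcodes in the 2.5-month libraries, against 672 and 784 in the 5-month libraries. Nuclei were clustered in scanpy 1.11.5 without the 5 genes (2000 variable genes, 30 components, resolution 1). Of 46 clusters 32 were named by markers, and 5 were left unnamed by decisions made after seeing the data. Libraries shared 0.0808% to 0.337% of barcodes.

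UMIs were summed per class and library and tested with edgeR 4.0.16 (quasi-likelihood, TMM, filterByExpr, library as block between classes) and Benjamini-Hochberg adjustment over all genes, with a threshold of 0.05. DESeq2 1.42.0 was an alternative. Each class was also tested against the average of the others over the 12567 genes with UMIs in every class. CPM are UMIs of a gene per 1e6 UMIs of the class. Donor numbers do not pair the ages: deviations of same-numbered libraries correlated at -0.186 to 0.0169. Named genes were the 5 genes, up to 4 called genes per list (the 2 highest and 2 lowest) and the 5 nearest genes by correlation among those reaching 20 CPM. One gene that this rule names is not reported here. The fits were also run on simulated counts with the same spread for every gene, and no result here rests on those runs. Intervals and floors cover counting error only.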

Additional observations from a re-analysis of the deposited data

Results flagged for a closer look

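Among 70 groups of 4 libraries (5 genes in 14 classes), 6 had a library far from the other libraries, and chance gives about 1 in 20. Gabbr2 in rod bipolar nuclei stood at 37.1 CPM in 5-month replicate 1, against 2.65 to 7.34 CPM in the other libraries. Gabrr3 in ON cone bipolar nuclei stood at 223 CPM in 2.5-month replicate 2, against 152 to 163 CPM. Gabrr2 in glycinergic amacrine nuclei stood at 17.1 CPM in 2.5-month replicate 1, and Gabbr2 there at 84.8 CPM in 5-month replicate 2. Gabrr3 stood at 1.08 CPM in horizontal cells of 5-month replicate 1 and at 4.01 CPM in starburst nuclei of 2.5-month replicate 1, each from 1 UMI. The other libraries of both held 0, so that any UMI would have been flagged.

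The difference in Gabbr2 between rod and cone bipolar nuclei differed between the ages by 2.80 on the log2 scale (adjusted p = 0.00928, edgeR), a call that was lost without subcluster B14.

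In the 2925 nuclei of unnamed clusters, which entered no comparison, the 5 genes stood at 4.83 CPM (Gabrr1), 11.4 CPM (Gabrr2), 2.61 CPM (Gabrr3), 60.0 CPM (Gabbr1) and 69.7 CPM (Gabbr2), above the 0.290 CPM that a count of 0 allows.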

How the results depend on the processing

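Of 936 alternative values over 67 results, 847 kept their direction and side of the threshold or, for counts of calls, stayed close to the main count. Of the others, 53 lost and 7 gained a call, 2 reversed, and 27 were counts that moved further from the main count. For rod bipolar against cone bipolar nuclei, Gabrr1 no longer passed when nuclei were thinned to 1000 UMIs (0.31) or in the 5-month libraries alone (0.47), nor did Gabbr1 at 5 months alone (-0.85), where 2 receptor genes were called and not 4; Gabrr2 passed at resolution 2 (0.26) and without subcluster B14 (0.26). Against ON cone bipolar nuclei, Gabbr1 did not pass at 5 months alone (-0.73). Against OFF cone bipolar nuclei, Gabrr1 did not pass with DESeq2 (0.43), thinned (0.09), without the library block (no pairing, 0.42) or at 5 months alone (0.20), with 0.34 to 0.51 when each library was left out, nor Gabbr1 thinned (-0.78), so that thinning left 3 of 5 calls. For ON against OFF, Gabrr1 passed with the automatic doublet threshold, at resolution 2 and without B14 (-0.35 each) and at 5 months alone (-0.60), with -0.51 to -0.23 over libraries left out; Gabbr1 reversed at 5 months alone (-0.21) and ranged from -0.05 to 0.30 over libraries left out. The age interaction of Gabbr2 was 2.60 with DESeq2, 1.88 with the automatic doublet threshold, 5.23 thinned, 1.94 at resolution 2 and 1.96 without B14, none of them called, and 1.39 to 3.37 over libraries left out (0 to 1 called). Over all genes that interaction called 291, against 61, 40, 52, 70 and 53 under those 5 alternatives and 37 to 375 over libraries left out. By class, thinning left 28 calls of 42 combinations tested, against 54 of 70, and leaving out a library gave 38 to 51 calls, with 56 tested in the fits without 2.5-month or 5-month replicate 1. By age, the fit with no low-count filter called 1 of the 5 genes (Gabbr2 in rod bipolar nuclei, 2.69, adjusted p = 0.0051), with 0 to 1 over libraries left out, and blocking the donor numbers, or crossing them (chosen after seeing the data), called 0. Without the library block 1 list gene was higher and not 3, with 1 to 3 over libraries left out. The cause of these changes was not tested. Gabbr2 in rod bipolar nuclei rests on 2 to 22 UMIs per library.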

Other observations

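Gabbr2 was also found in clusters that were left unnamed. It averaged 224 CPM (174 to 278 CPM over the 4 libraries) in the 415 nuclei of cluster 16, led by Dnah11 and Lgr5. In the 197 nuclei of cluster 30, led by Cntn6, it averaged 165 CPM (144.5 to 183 CPM). In the 158 nuclei of cluster 34, led by Htr2c and Tac1, it averaged 290.5 CPM (266.5 to 313 CPM). UMIs of Gabbr1 and Gabbr2 were found together in 51.9% of ganglion nuclei, whose median depth was 8674 UMIs, and in 0.156% of Müller-like nuclei (median 2811.5 UMIs). Thinned to 1000 UMIs the share was 2.46% in ganglion and 0.0626% in Müller-like nuclei.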
